A study of Mus musculus with 11 samples.

Results

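The HoxC cluster is the group of Hox genes on mouse chromosome 15, and the genes described here are the 7 that have reads across these libraries: Hoxc4, Hoxc5, Hoxc6, Hoxc8, Hoxc9, Hoxc10 and Hoxc13. They were picked by name from the 47517 rows of the gene table, and all 7 passed the filter on low counts. The remaining protein-coding genes of the cluster, Hoxc11 and Hoxc12, had 7 reads and 0 reads over all 11 libraries. The libraries were made from total RNA, depleted of ribosomal RNA, of forelimb buds of C57BL/6 embryos at E10.5. The 6 mutant libraries came from Gmnn f/f; Prx-Cre embryos and the 5 control libraries from Gmnn +/f; Prx-Cre embryos, so both groups carried the Cre transgene and at least one floxed Gmnn allele. Prx-Cre drives recombination in limb bud mesenchyme and not in the ectoderm, muscle precursors, vessels or blood of the bud, so the buds of both groups also held cells without recombination, and in the control mesenchyme one Gmnn allele is a target of the Cre.

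Hox genes encode transcription factors that bind DNA through a homeodomain and give cells positional identity along the body and limb axes. Genes at the 3′ end of a cluster are switched on first and furthest towards the head, and those at the 5′ end later and further towards the tail, an order called collinearity. In the forelimb bud, the long bones and digits depend mainly on HoxA and HoxD genes, while HoxC genes mark the level of the flank at which the limb forms: Hoxc4 and Hoxc5 are on at forelimb level, Hoxc6 and Hoxc8 around the forelimb and thorax, Hoxc9 to Hoxc11 mainly in trunk, tail and hindlimb. Gmnn encodes Geminin, an inhibitor of the replication licensing factor Cdt1 that also binds chromatin regulators and Hox proteins, and the title of the series asks about its role in Hox regulation in the limb.

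All members lie on the forward strand of chromosome 15 in mm10, in the order Hoxc13 (chr15:102921103-102928814), Hoxc12, Hoxc11, Hoxc10 (chr15:102966796-102971893), Hoxc9 (chr15:102976439-102985099), Hoxc8 (chr15:102990607-102994111), Hoxc6 (chr15:102998257-103011881), Hoxc5 (chr15:102967443-103017429) and Hoxc4 (chr15:103018934-103036852). Hoxc13 is therefore at the 5′ end and Hoxc4 at the 3′ end. The homeobox, the exonic coding stretch for the homeodomain, is the part in which the genes most resemble each other and in which short reads could be confused. It is shown for Hoxc4 and Hoxc6, the members with the lowest p-values, for the neighbour Hoxc8 and for Hoxc13 at the other end, in the coding direction, from the reference genome with the GENCODE M21 coding frames. Capitals mark the codons for the core of the recognition helix, which lies in the major groove of DNA.
Hoxc4 (chr15:103035663-103035842): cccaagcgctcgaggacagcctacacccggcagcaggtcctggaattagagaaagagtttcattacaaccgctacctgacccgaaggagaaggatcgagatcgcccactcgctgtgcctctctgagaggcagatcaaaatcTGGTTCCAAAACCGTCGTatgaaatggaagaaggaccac
Hoxc6 (chr15:103010754-103010933): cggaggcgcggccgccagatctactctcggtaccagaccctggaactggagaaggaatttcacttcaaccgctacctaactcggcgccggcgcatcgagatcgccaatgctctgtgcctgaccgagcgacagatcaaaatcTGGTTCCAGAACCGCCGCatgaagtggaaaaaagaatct
Hoxc8 (chr15:102992571-102992750): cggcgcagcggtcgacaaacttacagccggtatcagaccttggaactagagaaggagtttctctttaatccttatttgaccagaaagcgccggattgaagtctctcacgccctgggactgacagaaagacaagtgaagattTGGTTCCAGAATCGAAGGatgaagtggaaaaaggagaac
Hoxc13 (chr15:102927210-102927389): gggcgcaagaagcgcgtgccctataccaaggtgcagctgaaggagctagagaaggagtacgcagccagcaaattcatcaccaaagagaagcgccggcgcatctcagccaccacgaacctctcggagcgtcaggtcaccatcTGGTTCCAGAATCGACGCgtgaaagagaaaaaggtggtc

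Over these 180 bases, Hoxc4 and Hoxc6 were identical at 70.6% of positions, Hoxc6 and Hoxc8 at 67.8%, Hoxc4 and Hoxc8 at 63.9%, and Hoxc6 and Hoxc13 at 51.1%. The longest run of identical bases between any 2 of these 4 homeoboxes was 20, between Hoxc4 and Hoxc6. No window of 50 exonic bases of Hoxc4, Hoxc6 or Hoxc13 was found in another annotated gene. Hoxc5 and Hoxc10 shared windows with each other (3.92% of those of Hoxc5 and 6.40% of those of Hoxc10), because the first annotated exon of Hoxc5, chr15:102967443-102967608, lies inside the first exon of Hoxc10. Reads over those 166 bases were counted for neither gene, which lowers Hoxc10 and, less so, Hoxc5. Hoxc8 and Hoxc9 shared 0.432% and 1.44% of windows, a repeat, with many genes, which for Hoxc9 included 2 Hox genes of other clusters.

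Library depth was 14777833 to 19733288 reads over the control group and 14721181 to 17034741 over the mutant group. Gmnn, whose count adds all exons and so includes transcripts of recombined alleles, was 139.3 to 238.9 CPM (counts scaled to library size) in controls and 99.5 to 137.7 in mutants, without overlap (log2 fold change -0.67, edgeR's quasi-likelihood test, Benjamini-Hochberg adjusted p = 0.0291). The forelimb gene Tbx5 was at 75.3 to 122.9 CPM in controls and 64.8 to 83.7 in mutants, as the tissue label states. The 7 markers of limb mesenchyme summed to 538.2 to 637.7 and 575.2 to 677.1 CPM, and the 4 of its distal part (Hoxa13, Hoxd11, Hoxd12, Hoxd13) to 6.87 to 112.7 and 16.9 to 100.5 CPM. Neural tube and spinal motor neurons also express HoxC genes, and their 11 markers summed to between 0.205 and 1.52 CPM per library, with Olig2 at 0 reads in all. Among the controls, control 2 stood apart, with 79 reads of the hindlimb gene Pitx1 and 230 of Isl1 against 0 to 9 and 10 to 53 in the other libraries. The third hindlimb marker, Tbx4, was not raised there, at 2.73 CPM in control 2 against 2.74 in control 1 and 6.11 in control 3. Control 5 also stood apart, with 0 reads of Hoxa13, a gene of the distal bud.

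Along the cluster, the level of the genes peaked at Hoxc5 and not at its 3′ end. Per kb of exon, Hoxc5 was at 15.7 ± 5.39 CPM in controls (mean ± SD, n = 5) and 12.7 ± 2.90 in mutants (n = 6), and it was the highest HoxC gene in all 11 libraries, at 2.02 to 3.89 times the next. It took 55.0% of all reads of the cluster. Behind it came Hoxc4, at 4.70 ± 0.961 CPM per kb in controls and 3.45 ± 0.966 in mutants, Hoxc8 at 4.19 ± 2.01 and 4.46 ± 0.701, and Hoxc6 at 3.85 ± 1.32 and 2.27 ± 1.18. These 3 genes overlapped in both groups, so their order is not fixed by the data. Hoxc9, at 1.11 ± 0.471 and 1.37 ± 0.763 CPM per kb, lay below every control value of those 3, while in mutants it overlapped Hoxc6 and, through mutant 2 at 2.67, Hoxc4. Hoxc10 was at 0.868 ± 0.778 and 0.630 ± 0.404, and Hoxc13 at 0.456 ± 0.333 and 0.255 ± 0.211. The control ranges of Hoxc9, Hoxc10 and Hoxc13 overlapped.

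Between Hoxc10 and Hoxc13 the cluster was close to silent. The 7 reads of Hoxc11 fell in 3 libraries and came to a mean of 0.0162 CPM per kb in controls and 0.0224 in mutants. The 0 reads of Hoxc12 allow at most 0.0165 CPM over the pooled libraries, from a floor of 3 counts, which covers counting error only. Hoxc13, at the far 5′ end, thus had more reads (159) than both genes between it and Hoxc10, and it had reads in every library. Hotair, the antisense RNA between Hoxc11 and Hoxc12, had 2 reads. The microRNA genes Mir196a-2 and Mir615 had 0 and 1 read, in libraries whose preparation need not retain RNAs of that size. Because counting ignored strand, antisense RNA over an exon is included in each value.

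**Figure D1:**
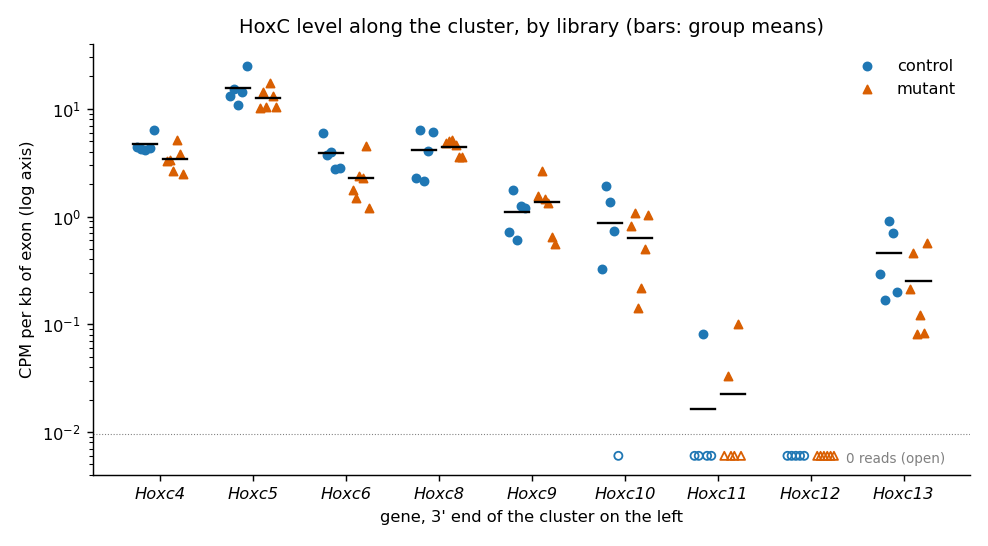
Level of the 9 HoxC genes in CPM per kb of exon on a log axis, with one point per library (circles control, triangles mutant, bars group means) and genes ordered from the 3′ end. Hoxc5 is highest in all 11 libraries, Hoxc11 has reads in 3 libraries and Hoxc12 in none, and open symbols at the bottom stand for 0 reads.

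Hoxc4, a gene of paralogue group 4 at the 3′ end, was at 11.35, 10.97, 10.58, 11.04 and 16.47 CPM in controls 1 to 5. In the mutants the lowest value was 6.32, the median 8.52 and the highest 13.2 CPM. Control 5 was well above the other 4 controls, which lay close together, and the groups overlapped because mutant 4, a littermate of control 5, was above those 4. The log2 fold change of mutant over control was -0.50 (SE 0.163, 95% interval -0.85 to -0.14), with an unadjusted p of 0.0101 and an adjusted p of 0.114 in edgeR's quasi-likelihood test. The mutants were on average lower in each of the 4 litters, by log2 differences of -0.38, -0.73, -0.16 and -0.79 in litters A to D. In this tissue sample, fewer cells that express a gene and less of its RNA per cell cannot be told apart.

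Hoxc5, the most abundant member, was at 40.55, 47.0, 33.75, 44.67 and 77.0 CPM in controls 1 to 5 and at 31.8, 36.4 and 53.8 CPM (lowest, median, highest) in mutants. Control 5 was again the highest library, and the other 4 controls lay inside the range of the mutants. Its log2 fold change was -0.34 (SE 0.154, 95% interval -0.67 to -0.0024), at an unadjusted p of 0.0486 and an adjusted p of 0.232 (edgeR's quasi-likelihood test). The mean of the mutants was lower in all 4 litters, with log2 differences of -0.22, -0.08 and -0.13 in litters A, B and C and of -0.89 in litter D, which holds control 5. Control 5 is the sole control of litter D, so that leaving it out also takes mutants 3 and 4 out of the genotype contrast. The log2 fold change was then -0.16 (adjusted p = 0.601, edgeR).

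Hoxc6, which marks the level of the thorax and the proximal forelimb, was at 14.43, 9.01, 9.60, 6.62 and 6.73 CPM in controls 1 to 5. In mutants 1 to 6 it was at 4.22, 3.57, 5.78, 5.47, 10.8 and 2.88 CPM. Of the mutants, 5 were below every control, and mutant 5, from litter C, was above all but control 1. The log2 fold change, the largest of the 7, was -0.85 (SE 0.317, 95% interval -1.54 to -0.16), with an unadjusted p of 0.0204 and an adjusted p of 0.157 in edgeR's quasi-likelihood test. By litter, the log2 difference was -1.53 in A, -1.69 in B, 0.69 in C and -0.25 in D. The test of whether these differences vary between litters gave an unadjusted p of 0.00262 and an adjusted p of 0.950 over all genes (edgeR). With litter C left out, the log2 fold change was -1.23 (adjusted p = 0.0581), and with litter A left out it was -0.37 (adjusted p = 0.663, edgeR in both cases).

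The Hoxc6 result moved with what entered the model. With DESeq2 its adjusted p was 0.0326 at a log2 fold change of -0.87, and with the summed neural markers as a covariate in edgeR the adjusted p was 0.0102 at -1.02. In these fits 7.55% and 15.9% of all genes passed, against 2.18% in the main fit, so calls rose in general. The neural markers summed to 0.205 to 1.52 CPM per library, so that covariate rests on few reads. The libraries differed in the relative level of genes with long runs of T in their transcripts. An index of this, the mean log2 CPM of 959 genes with a run of at least 18 T minus that of 4232 genes with none over 5, was 1.86 to 2.30 in controls and 1.53 to 2.11 in mutants. With that index as a covariate the log2 fold change of Hoxc6 was 0.02 (adjusted p = 0.989, edgeR), and that of Hoxc4 was -0.57 (adjusted p = 0.419) and of Hoxc5 -0.70 (adjusted p = 0.251). The largest shift under that covariate among the 7 was in Hoxc13, to -1.75 (adjusted p = 0.376, edgeR). The longest T run of Hoxc6 itself is 7 bases, of Hoxc4 6, of Hoxc5 8 and of Hoxc13 12. The index and genotype move together, and their parts in the Hoxc6 difference cannot be told apart with these libraries.

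Hoxc8, a gene of the level around the forelimb and thorax, was at 6.43, 17.9, 6.05, 11.6 and 17.3 CPM in controls 1 to 5 and at 10.1, 13.4 and 14.5 CPM (lowest, median, highest) in mutants. The mutants all lay within the range of the controls, which had a coefficient of variation of 48.0% against 15.7% in mutants. Between genotypes Hoxc8 had a log2 fold change of 0.08 (SE 0.228, 95% interval -0.41 to 0.58, adjusted p = 0.878, edgeR's quasi-likelihood test). Mutants were higher in litters A and B and lower in C and D, by 0.37, 0.73, -0.18 and -0.33.

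Hoxc9, a gene of the trunk and of the hindlimb level, was at 1.73, 4.32, 1.47, 3.02 and 2.94 CPM in controls 1 to 5. The mutants were at 3.76, 6.48, 3.56, 3.27, 1.57 and 1.35 CPM. The range of the controls lay inside that of the mutants. Hoxc9 had a log2 fold change of 0.18 (SE 0.310, 95% interval -0.49 to 0.86, adjusted p = 0.786, edgeR), with litters A and D higher in mutants (0.82 and 0.21) and B and C lower (-0.12 and -0.89). Control 3 and mutant 6, the libraries of litter B, had the lowest Hoxc9 of their groups.

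Hoxc10, a hindlimb gene in the limb buds, had 11, 71, 48, 24 and 0 reads in controls 1 to 5 and 27, 31, 4, 7, 14 and 32 reads in mutants 1 to 6. Control 2, the library with the most Pitx1 and Isl1 reads, also had the most Hoxc10 reads. Control 3, next at 48 reads of Hoxc10, had 1 read of Pitx1 and 42 of Isl1. The 0 of control 5 allows up to 0.210 CPM there. The 3 libraries of litter D were the lowest in CPM, at 0 reads in the control and 4 and 7 in the mutants. The log2 fold change was -0.10 (SE 0.509, 95% interval -1.21 to 1.01, adjusted p = 0.939, edgeR), and without control 2 it was 0.52 (adjusted p = 0.628). That interval spans log2 differences beyond 1 in both directions, and controls 1 and 2, of the same litter, differed between 11 and 71 reads.

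Hoxc13, known for its role in hair, nail and tail, had 13, 8, 41, 30 and 7 reads in controls 1 to 5 and 9, 17, 3, 5, 3 and 23 reads in mutants 1 to 6. Its highest library in each group was that of litter B, control 3 at 2.24 CPM and mutant 6 at 1.41 CPM. Of the 4 distal mesenchyme markers, Hoxa13, Hoxd12 and Hoxd13 were highest of all libraries in control 3 (10.4, 38.8 and 35.98 CPM), and Hoxa13, Hoxd11 and Hoxd12 were highest of the mutants in mutant 6 (4.36, 32.3 and 35.5 CPM). The 6 ectoderm markers did not move together there. In control 3 Krt14 was the highest of all libraries (46.8 CPM), and Cdh1 (26.7), Trp63 (38.2) and Epcam (33.8) were in the upper part of their ranges. Krt8 (20.1) and Krt18 (58.0) were in the lower part there. In mutant 6 Krt8 (15.8) was the lowest of all, while Krt14 was at 20.8 against 21.3 CPM in the highest mutant. Control 4, next to control 3 in Hoxc13 at 1.74 CPM, had the highest Cdh1 (27.6) and Trp63 (46.5) of all libraries, and Hoxa13 at 1.05 CPM. The part of either tissue in the Hoxc13 reads was not tested. The log2 fold change was -0.63 (SE 0.492, 95% interval -1.70 to 0.44, adjusted p = 0.497, edgeR). By litter it was 0.41 in A and -0.62, -2.52 and -0.74 in B, C and D, the value in C resting on 30 reads against 3.

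**Figure D2:**
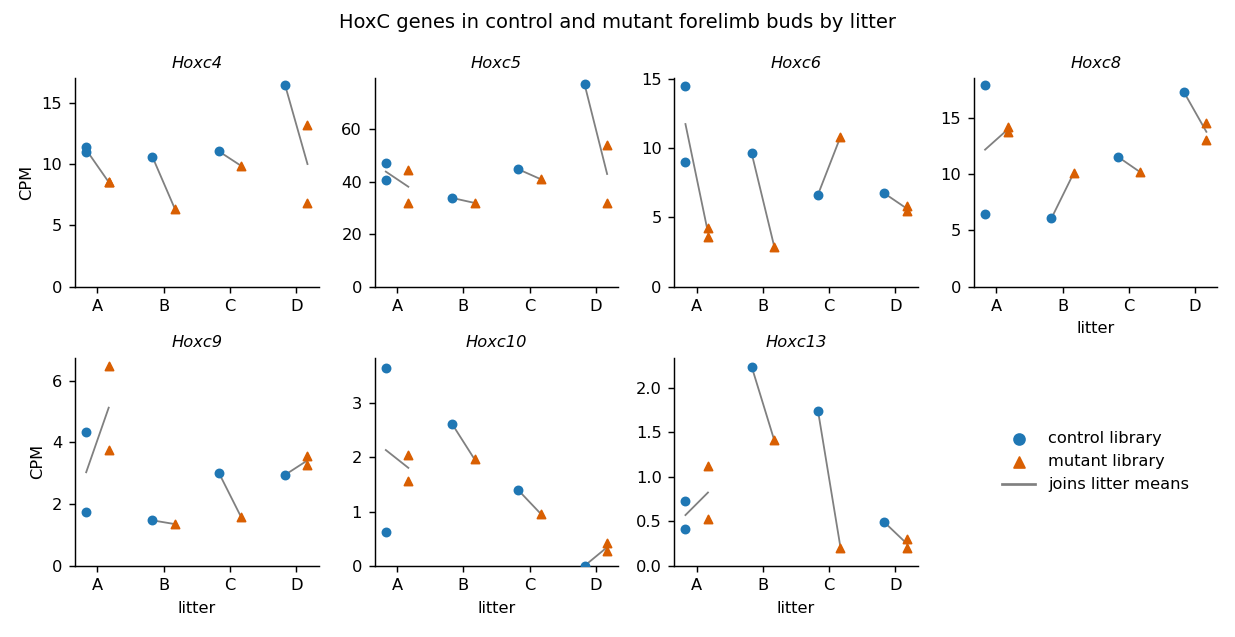
CPM of each of the 7 HoxC genes by litter on axes that start at 0, with circles for control libraries, triangles for mutant libraries and grey lines joining the litter means. Hoxc4 and Hoxc5 slope down in all 4 litters, Hoxc6 in 3 with a rise in litter C, and the slopes of Hoxc8, Hoxc9 and Hoxc10 differ in sign between litters.

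Over the 7 genes, 0 passed an adjusted p of 0.05 between genotypes in edgeR's quasi-likelihood test, while 345 of 15821 genes did (2.18%), of which 111 were higher and 234 lower in mutants. At an unadjusted p under 0.05 there were 3 members, Hoxc4, Hoxc5 and Hoxc6, against 21.4% of all genes. These 3 were lower in mutants, a direction and threshold that 11.5% of all genes met. The 3 are neighbours at the 3′ end of the cluster. The 4 distal mesenchyme markers had positive log2 fold changes (median 0.66), with Hoxa13 at 0.04 (SE 0.613). Of the 4, 2 had an unadjusted p under 0.05 and 0 passed the adjusted threshold (edgeR). All 4 are Hox genes themselves, so they do not measure distal tissue apart from Hox expression. The part of distal tissue in the lower values of Hoxc4, Hoxc5 and Hoxc6 was not tested. Control and mutant libraries overlapped in log2 CPM for all 7 members, while 2.59% of all genes had groups that did not overlap. The median log2 fold change of the members was -0.34, with 5 negative and 2 positive, and that of all genes tested was 0.0038. 

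Litters were compared in the same way. With genotype in the model, 0 members passed an adjusted p of 0.05 for litter (0.0885% of all genes did), and 4 had an unadjusted p under 0.05, where 13.5% of all genes did. These were Hoxc10, at an unadjusted p of 0.00903 and an adjusted p of 0.221, and Hoxc9, Hoxc13 and Hoxc5, at adjusted p-values of 0.350, 0.350 and 0.359 in edgeR's test of the litter coefficients. In each group, the library with the most Hoxc5 and that with the least Hoxc10 came from litter D, and the one with the least Hoxc9 and the most Hoxc13 from litter B. For the difference of the genotype effect between litters, 0 members passed the adjusted threshold, as did 0% of all genes. Hoxc6 was the 1 member at an unadjusted p under 0.05, among 605 of all 15821 genes tested (edgeR).

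The paralogues in the other clusters, genes of the same group by sequence and position, show where HoxC levels stand in the forelimb bud. Per kb of exon in controls, Hoxc5 (15.7 CPM) was above Hoxa5 (10.9) and Hoxb5 (7.99), and Hoxc4 (4.70) above Hoxa4 (3.35), Hoxb4 (2.33) and Hoxd4 (0.726). Hoxc6 (3.85) was near Hoxb6 (3.18) and above Hoxa6 (0.785). From group 8 on, the HoxD and HoxA genes had higher means: Hoxc8 (4.19) was above Hoxb8 (0.506) but below Hoxd8 (29.1), and Hoxc9 (1.11) was below Hoxb9 (3.60), Hoxa9 (14.5) and Hoxd9 (22.0). Hoxc10 (0.868) was below Hoxa10 (36.9) and Hoxd10 (57.8), and Hoxc13 (0.456) below Hoxd13 (6.48). The mean of Hoxa13 (1.02, SD 1.79) was above that of Hoxc13 through control 3, at 4.21 for Hoxa13 and 0.908 for Hoxc13. In controls 1, 2, 4 and 5 Hoxa13 was at 0.317, 0.167, 0.423 and 0, and Hoxc13 at 0.295, 0.167, 0.708 and 0.199. These are means of the same 5 controls and were not tested against each other.

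Between genotypes, the paralogues of the 3 HoxC genes at the 3′ end were nearer to 0 or opposite in sign. In group 4 the log2 fold change was 0.00 for Hoxa4, 0.00 for Hoxb4 and 0.73 for Hoxd4 (SE 0.224, adjusted p = 0.0945, edgeR). In group 5 it was 0.02 for Hoxa5 and -0.14 for Hoxb5, and in group 6 -0.07 for Hoxa6 and -0.22 for Hoxb6. At the other end, Hoxd13 was at 0.70 and Hoxa13 at 0.04. Differences between a HoxC gene and its paralogues were not tested. Of the 30 other Hox genes listed, 29 were tested, 0 passed an adjusted p of 0.05 and 4 had an unadjusted p under 0.05 (edgeR), and their median log2 fold change was 0.02.

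**Figure D3:**
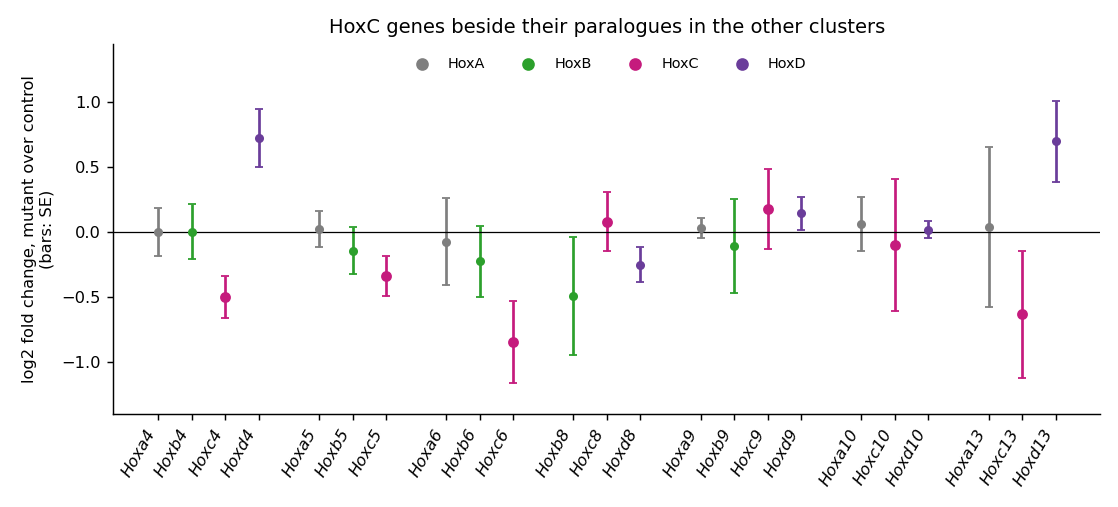
Log2 fold change, mutant over control, of the HoxC genes and their tested paralogues, grouped by paralogue number, with bars of 1 SE. Hoxc4, Hoxc5 and Hoxc6 are the lowest points of their groups, at -0.50, -0.34 and -0.85.

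Among 9 cofactors that bind DNA together with Hox proteins, 1 passed the adjusted threshold, lower in mutants. This was Meis1, which marks the proximal limb bud, at 186.6 ± 22.8 CPM in controls (SD, n = 5) and 122.4 ± 18.8 in mutants (n = 6). Its log2 fold change was -0.63 (SE 0.102, adjusted p = 0.0291, edgeR). Of the 9, 7 had negative and 2 positive log2 fold changes, and 3 had an unadjusted p under 0.05. Pknox2 was at -0.79 (SE 0.211, adjusted p = 0.0671, edgeR). The median of the 9 was -0.09. Of 22 upstream and chromatin regulators of Hox genes, 19 were tested and 1 passed the adjusted threshold, lower in mutants. This was Kmt2d, a histone H3K4 methyltransferase of enhancers, at 312.1 ± 74.4 CPM in controls and 181.4 ± 48.2 in mutants. Its log2 fold change was -0.73 (SE 0.160, adjusted p = 0.0464, edgeR). Its groups overlapped, with control 5 at 189.2 CPM and mutant 5 at 265.4. The median of those 19 was -0.03. Of all genes tested, 2.18% passed the adjusted threshold, and other fits are not given here for Meis1 or Kmt2d. The longest T run of Meis1 is 13 bases.

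Across the 11 libraries, the levels of the HoxC genes did not move as one block. Of the 21 pairs of members, 9 had a positive and 12 a negative Pearson correlation of log2 CPM, from -0.560 for Hoxc5 with Hoxc10 to 0.854 for Hoxc4 with Hoxc5. The libraries share litter, genotype and depth differences, and correlations were tested by permutation of libraries with adjustment over the 21 pairs.

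Hoxc4 and Hoxc5, the neighbours at the 3′ end, were the 1 pair to pass, with r = 0.854 (permutation p = 0.00082, adjusted 0.0172) and Spearman's rho = 0.818 (permutation p = 0.0035, adjusted 0.0735). Control 5 was highest and mutant 4 next in both genes, and both come from litter D. The permutation did not keep litters together, and a correlation with litter taken out was not computed. Without control 5 and mutant 6, the libraries farthest from the median of Hoxc4, r was 0.717 (permutation p = 0.0296, adjusted 0.216), so the pair did not pass with those 9 libraries, and no other pairs of libraries were left out. After subtracting each genotype's mean, r was 0.847 (permutation p = 0.00166, adjusted 0.0349), and within the 6 mutants alone 0.872 (exact permutation p = 0.0264, adjusted 0.185). Of all genes tested, 0.0948% were at least as correlated with Hoxc4 as Hoxc5 was, and 0.183% were as correlated with Hoxc5 as Hoxc4 was.

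Hoxc8 and Hoxc9, the next neighbours, were at r = 0.756 (permutation p = 0.00681, adjusted 0.0715) and rho = 0.764 (permutation p = 0.0087, adjusted 0.0914). Without controls 1 and 3 r was 0.708, and in the 6 mutants it was 0.927 (exact permutation p = 0.0208, adjusted 0.185). At least as correlated with Hoxc8 were 2.80% of genes, and with Hoxc9 1.26%. Control 1 and control 3 were low and control 2 high in both genes. Hoxc10 and Hoxc13 were at r = 0.481 (permutation p = 0.134, adjusted 0.426) over 11 libraries.

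Hoxc6, between these pairs on the chromosome, passed with neither. Its r was 0.510 with Hoxc4 (permutation p = 0.109, adjusted 0.426), 0.176 with Hoxc5 (permutation p = 0.610, adjusted 0.800), and -0.436 with Hoxc8 (permutation p = 0.183, adjusted 0.426). Per kb, Hoxc8 was above Hoxc6 in 3 of 5 controls and in 5 of 6 mutants, and the ratio of Hoxc8 to Hoxc6 ran from 0.379 in control 1 to 3.38 in mutant 2.

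**Figure D4:**
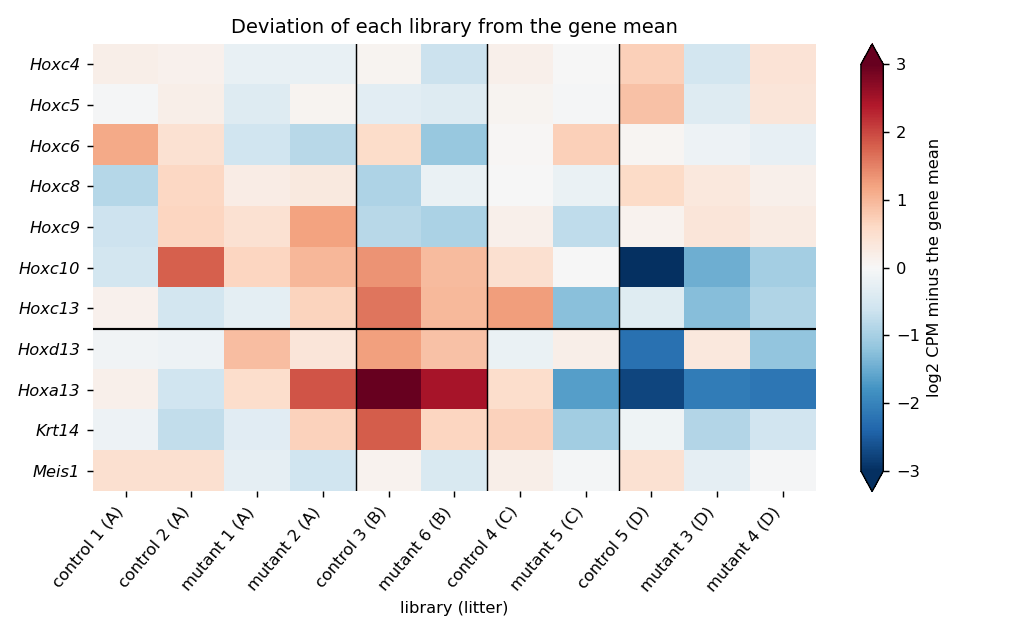
Log2 CPM of each library minus the gene's mean over the 11 libraries (red above, blue below, colour scale clipped at -3 and 3), with libraries ordered by litter and the 7 HoxC genes above 4 other genes. Control 5 is high in Hoxc4 and Hoxc5 and low in Hoxc10, and control 3 is high in Hoxc13, Hoxd13, Hoxa13 and Krt14. Of the 6 ectoderm markers Krt14 alone is drawn. In control 3 Epcam, Cdh1 and Trp63 were in the upper part of their ranges, and Krt8 and Krt18 in the lower part.

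The library profile of the 4 members with a mean of at least 5 CPM (Hoxc4, Hoxc5, Hoxc6 and Hoxc8) was averaged. These 4 did not all move together, with r = 0.854 for Hoxc4 with Hoxc5 and -0.436 for Hoxc6 with Hoxc8. The average therefore need not follow each of them. The genes most like the average were Wdr24 (r = 0.957 over 11 libraries), Snx1 (0.951), Dars (0.940), Pes1 (0.930) and Rabggta (0.917). They encode a regulator of nutrient signalling to mTORC1, a sorting nexin of endosomes, an aspartate tRNA ligase, a factor of ribosome assembly and a subunit of Rab prenylation. They are the highest of 15821 genes by construction, and these values are descriptions without a test. Their log2 fold changes between genotypes were -0.27, -0.11, -0.16, -0.15 and -0.18, with adjusted p-values of 0.114 to 0.307 in edgeR's test.

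Across the 24 other ways of fitting or choosing libraries, Hoxc4 and Hoxc5 were lower in mutants in all 24. These are not 24 separate checks: litters B and C hold 1 control and 1 mutant each, so that leaving out either library or the litter gives nearly the same genotype estimate, and so do control 5 and litter D. The log2 fold change of Hoxc4 ran from -0.59 to -0.40 and that of Hoxc5 from -0.70 to -0.16. Hoxc6 ran from -1.23 to 0.02, with the sign turned by the T-run covariate alone. Hoxc8, Hoxc9 and Hoxc10 turned sign in 5, 4 and 11 of the 24, repeats included. Hoxc13 was lower in mutants in all 23 it was tested in, from -1.75 to -0.17.

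**Figure D5:**
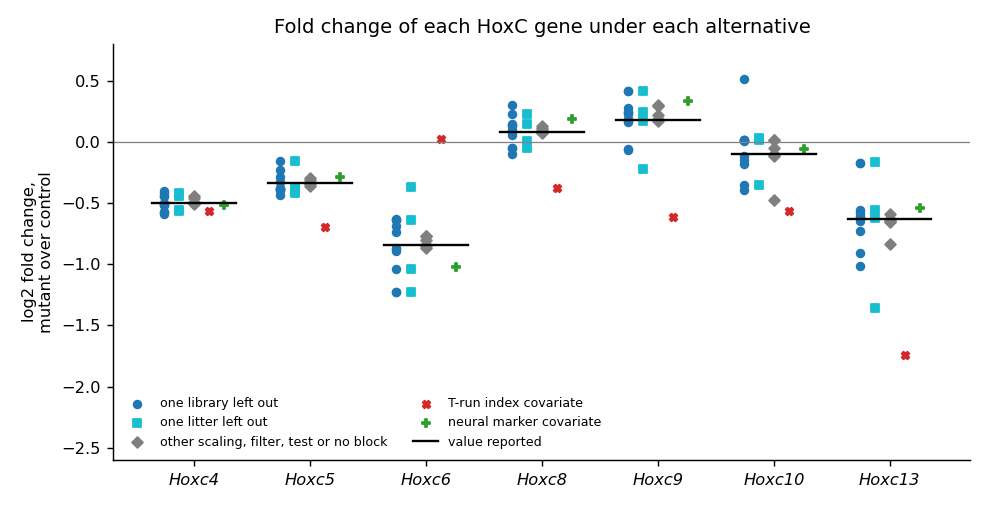
Log2 fold change of each HoxC gene under each alternative (blue circles one library left out, cyan squares one litter left out, grey diamonds other scaling, filter, test or no block, red crosses T-run covariate, green plus signs neural marker covariate), with black bars for the reported value. Hoxc4 stays between -0.59 and -0.40, and Hoxc6 lies at 0.02 under the T-run covariate.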

How the data were processed

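RNA-seq of E10.5 forelimb buds gave 11 libraries, and groups and litters were taken from the sample titles. Controls 1 and 2 shared litter A with mutants 1 and 2. Control 3 was a littermate of mutant 6 (B), control 4 of mutant 5 (C), and control 5 of mutants 3 and 4 (D). The design text speaks of 6 pairs, and 11 libraries were analysed here. What the authors deposited are raw read counts, summed over the exons of each gene name with featureCounts 1.4.6-p4 on mm10 and GENCODE M9 with a mapping quality of at least 10 and no strand option, per the file headers. The submitters' processing notes name STAR 2.5.4b. Each gene's exon length is in the deposited table.

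Counts were fitted with edgeR 4.0.16 (limma 3.58.1, R 4.3.3): TMM scaling, filterByExpr (15821 of 47517 genes, 99.9% of counts), quasi-likelihood F tests, two-sided, with litter and genotype, Benjamini-Hochberg over all genes tested, threshold 0.05. CPM used TMM-scaled totals, and log2 CPM a prior count of 2. Litter and interaction tests took 3 coefficients together. Pairing comes from the litter in the titles. As a check, deviations from group means correlated across genes at a median of 0.130 over 8 same-litter pairs of libraries (-0.163 to 0.369) and -0.0199 over 22 pairs from different litters (-0.333 to 0.171). No pair within a group matched to sampling noise (chi-square over degrees of freedom at least 7.39 in 25 pairs). Correlations used 100000 permutations, and all orders within the 6 mutants. The edgeR script was tested on simulated data.

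Named were all members, Hoxc11 and Hoxc12 by reads, Gmnn, genes of the lists past the threshold, and the 5 genes most like the HoxC profile. Genes of the cluster outside this rule, paralogues and the markers named with their reads were chosen after their values were seen. The members and lists were chosen with earlier results of these data known. Alternatives were other scalings, filters, DESeq2 1.42.0, limma-voom, no block, each library or litter left out, and a neural marker or T-run covariate. T runs, homeoboxes and windows were read from GENCODE M21 on mm10. Homeoboxes of the other members are not reported here.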

Additional observations from a re-analysis of the deposited data

Results flagged for a closer look

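The log2 CPM of Hoxc4 in control 5 was 4.05, set apart from the other 4 controls by a gap that is large against the range of the group. It was the 1 such library among 28 comparisons (the highest and the lowest library of each member in each group), where chance gives about 0.7. Control 5 was also the highest library for Hoxc5 and had 0 reads of Hoxc10 and of Hoxa13. Without control 5, the sole control of litter D, and thus without a contrast in that litter, the log2 fold change of Hoxc4 was -0.42 (adjusted p = 0.222, edgeR) and that of Hoxc5 -0.16 (adjusted p = 0.601, edgeR).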

How the results depend on the processing

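The count of members past an adjusted p of 0.05 was 0 and became 3 without a filter on low counts, 1 with DESeq2 and 1 with the neural marker covariate. The share of all genes that passed also rose, from 2.18% of 15821 to 5.35% of 29256 without a filter. It was 7.55% with DESeq2 and 15.9% with the neural covariate. The count over all genes (345) was 1566 without a filter, 550 with a filter of 1 CPM in 5 libraries, 1194 with DESeq2, 13 without the replicate block, 2 with the T-run covariate, 2513 with the neural covariate, and 9, 3, 1 and 148 with litter A, B, C or D left out. With one library left out it ran from 1 to 850. The block changed no member's call. The count of members at an unadjusted p under 0.05 ran from 1 to 3 (1 without control 5 or without mutant 1), and that for litter from 1 to 4. The members counted for genotype were not always Hoxc4, Hoxc5 and Hoxc6. Hoxc13 was counted and Hoxc6 was not in 3 fits: without litter A, without mutant 2 and with the T-run covariate. There the unadjusted p of Hoxc13 was 0.0274, 0.0489 and 0.0292 (edgeR).

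Without a filter, adjusted p was 0.0174 for Hoxc4, 0.0133 for Hoxc5 and 9.454e-05 for Hoxc6 (edgeR). The log2 fold change of Hoxc6 was then -0.85, as in the main fit, and its SE 0.176 against 0.317. With the T-run covariate, Hoxc6 turned to 0.0201, Hoxc8 to -0.38 and Hoxc9 to -0.61. Hoxc10 turned to 0.0136 with DESeq2, 0.0143 with limma-voom, and 0.0299, 0.0194 and 0.0150 without litter A, B or C. Hoxc8 was -0.0540 without litter B and Hoxc9 -0.22 without litter A. With one library left out, Hoxc8 ran from -0.100 to 0.299, Hoxc9 from -0.0694 to 0.417, and Hoxc10 from -0.391 to 0.517. The correlation of Hoxc4 with Hoxc5 was 0.717 without the 2 farthest libraries and 0.872 in mutants, neither past the adjusted threshold with fewer libraries. That of Hoxc5 with Hoxc6 turned to -0.0871 on deviations from genotype means. Hoxc5 was 3.35 times Hoxc4 per kb and 4.02 times in CPM. Beyond the smaller numbers of libraries or genes, the cause of these shifts was not tested. Hoxc10 and Hoxc13 rest on 0 to 71 and 3 to 41 reads per library, and differ widely within a group (Hoxc10 in controls 1 and 2, 11 and 71 reads).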
